A study of Mus musculus with 18 samples.

Results

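The 10 genes described here encode 7 matrix metalloproteinases (MMPs), Mmp2, Mmp3, Mmp9, Mmp11, Mmp12, Mmp14 and Mmp19, and 3 tissue inhibitors of metalloproteinases (TIMPs), Timp1, Timp2 and Timp3. They were taken by gene symbol from a count table of 54347 genes, and all 10 were among the 18728 genes that passed the filter on low counts. Mmp3 was chosen by its measured counts, which separate inguinal from epididymal fat, and the other 9 as its relatives. The levels of Mmp3 and the differences of the 10 genes between both white depots are therefore given as a description, with no test, whereas brown against white fat was tested for the 9 relatives and the genotypes were tested for all 10.

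PolyA RNA was sequenced from 3 adipose tissues of 12-week-old C57BL/6N mice: interscapular brown (iBAT), inguinal white (iWAT) and epididymal white adipose tissue (eWAT). The mice were 3 ΔGm15551 animals, called ko here, and 3 wild type (wt) litter mates, each of which gave all 3 tissues, so that 18 libraries fall into 6 groups of 3. The ko mice came from a single CRISPR/Cas9 deletion that removes exon 1 of the long noncoding RNA gene Gm15551 and were backcrossed to wild type, and the labels name no diet. The methods of the study give chow for mice of this line used for transcriptomics, whereas its results speak of high-fat and control diets for adipose transcriptomes, so the diet of these mice is uncertain. The samples were whole tissue, so a lower level can mean fewer cells of a type or less RNA per cell, which bulk RNA cannot tell apart.

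MMPs are zinc-dependent endopeptidases that cut collagens, elastin, proteoglycans and other proteins of the extracellular matrix, and they are made as inactive proenzymes. TIMPs bind the active site and block it, and Timp2 also takes part in the activation of the Mmp2 proenzyme by the membrane-bound Mmp14. In adipose tissue these enzymes are known for the remodelling of the matrix around adipocytes and vessels, and they are made by fibroblasts and adipocyte progenitors, macrophages and neutrophils as well as by adipocytes.

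The 7 MMPs share the catalytic zinc site that belongs to their family, so sharing it follows from the choice of genes. Its codons are shown because this is the site that TIMPs occupy. Each stretch below holds 33 bases of the coding strand in GRCm38 (annotation GENCODE M21), with the codons of the 3 zinc-binding histidines and of the catalytic glutamate in capitals.
Mmp3: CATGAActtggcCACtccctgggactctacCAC
Mmp12: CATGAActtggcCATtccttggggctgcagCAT
Mmp11: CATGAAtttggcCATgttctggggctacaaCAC
Mmp19: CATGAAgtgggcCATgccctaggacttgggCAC
Mmp2: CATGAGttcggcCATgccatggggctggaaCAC
Mmp14: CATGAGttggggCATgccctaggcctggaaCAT
Mmp9: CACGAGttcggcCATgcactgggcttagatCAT
The site lies in exon 5 of Mmp3 (chr9:7449775-7449807, plus strand), Mmp12 (chr9:7352914-7352946, plus), Mmp11 (chr10:75926931-75926963, minus), Mmp19 (chr10:128795673-128795705, plus) and Mmp14 (chr14:54437627-54437659, plus). It lies in exon 8 of the gelatinases Mmp2 (chr8:92839279-92839311, plus) and Mmp9 (chr2:164951133-164951165, plus). Mmp12 differed from Mmp3 at 7 of the 33 bases, Mmp11 and Mmp19 at 9 each, Mmp2 at 10, Mmp14 at 12 and Mmp9 at 13.

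The libraries held between 14997901 and 34389586 counts, and 3 counts, the limit below which a level was taken as not measurable, corresponded to between 0.0728 and 0.235 counts-per-million (CPM), a bound that covers counting error only. Gm15551 itself had between 40 and 316 counts in the wt libraries and between 0 and 4 in the ko libraries. The summed brown adipocyte markers were between 7339.9 and 12831 CPM in iBAT and at most 325 CPM in the white depots, and the inguinal depot markers summed to between 45.6 and 93.1 CPM in iWAT and at most 15.2 CPM elsewhere. The epididymal depot markers separated eWAT (31.6 to 111 CPM) from iWAT (5.99 to 14.3 CPM) but overlapped with iBAT (28.9 to 56.7 CPM). Of the 18 libraries, 4 are called libraries with genes of other tissues here. In iWAT wt replicate 3 and iWAT ko replicate 2 the 10 lymph node markers summed to 1774 and 762 CPM, against 71.5 to 194 CPM in the other 4 iWAT libraries. In eWAT ko replicate 3 the epididymis markers summed to 5095 CPM, and in iWAT ko replicate 1 the skeletal muscle markers summed to 4484 CPM. Smaller sums of this kind were seen in further libraries, with lymph node markers at 586 CPM in eWAT ko replicate 1 (83.2 to 304 CPM in the rest of eWAT), epididymis markers at 34.9 CPM in eWAT wt replicate 1, epidermis and mammary epithelium markers at 78.9 CPM in iWAT ko replicate 3 and muscle markers at 22.8 CPM in iBAT wt replicate 3. For the 10 genes, tissue differences whose fold moved by over 1.5 times without these 4 libraries are also given without them, and the other genes named were not run without them.

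**Figure D1:**
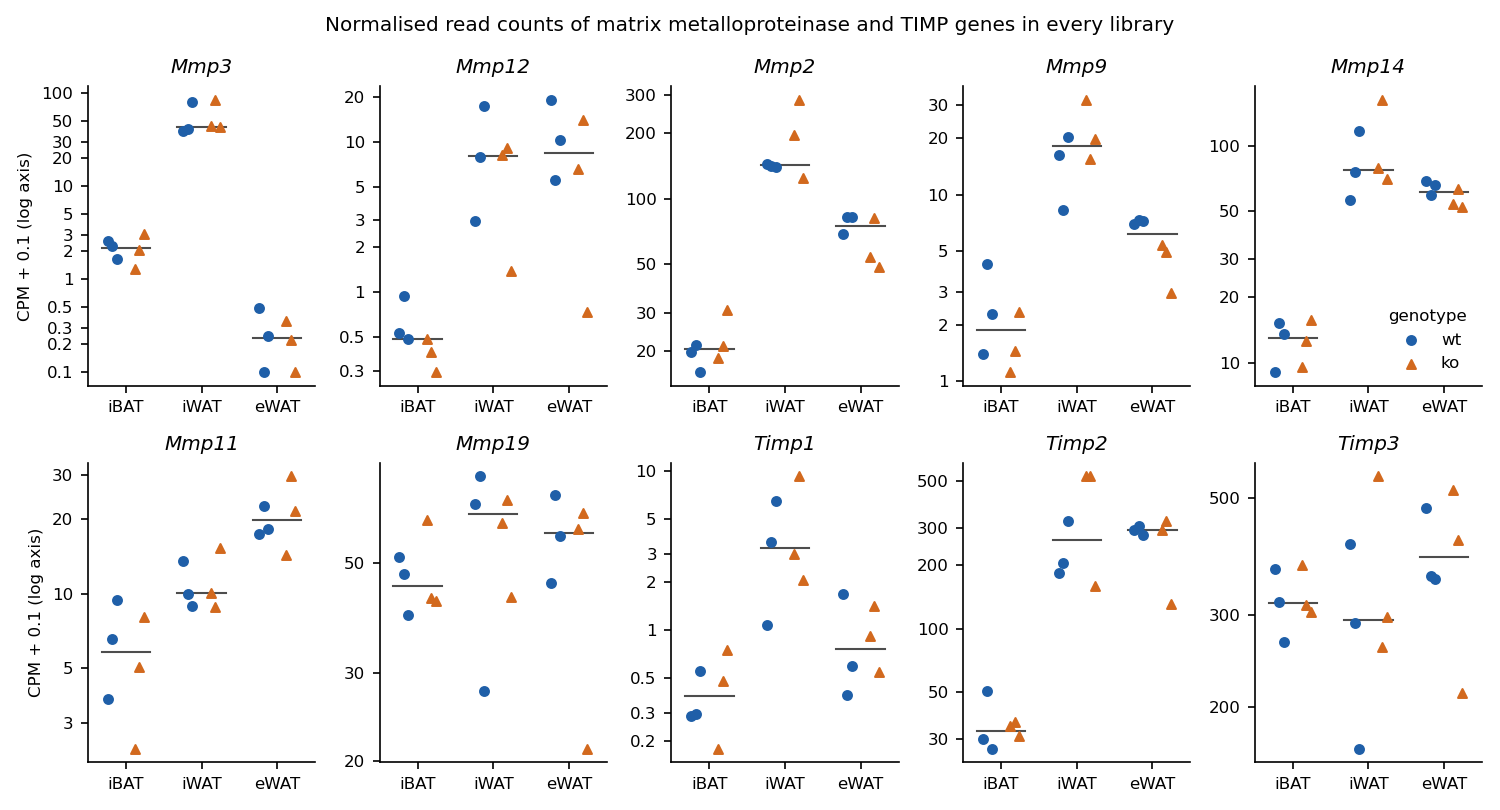
CPM of each gene in every library (vertical log axis, 0.1 CPM added), by tissue, with wt libraries as circles, ko libraries as triangles and the median of 6 libraries as a line. Mmp3 lies between 39.0 and 85.2 CPM in iWAT and between 0 and 0.396 CPM in eWAT, whereas Mmp19 and Timp3 overlap among all 3 tissues.

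Mmp3 encodes stromelysin-1, which cuts proteoglycans, fibronectin and several collagens and activates other MMP proenzymes. Its level in iWAT was 39.0, 41.1 and 80.2 CPM in the wt libraries and 44.1, 85.2 and 43.4 CPM in the ko libraries. In iBAT it was 2.48, 2.20 and 1.55 CPM in the wt and 1.17, 1.95 and 2.96 CPM in the ko libraries. In eWAT it was 0.396, 0 and 0.148 CPM in the wt and 0.257, 0.121 and 0 CPM in the ko libraries. The 3 tissues did not overlap, and the order was iWAT, iBAT, eWAT. The eWAT values rest on 23 counts over all 6 libraries, and 2 of these libraries had none, so they sit around the limit of 3 counts. The iWAT libraries held between 1140 and 2433 Mmp3 counts each and the iBAT libraries between 15 and 46. The fitted log2 difference was 8.43 (SE 0.50) for iWAT minus eWAT and -4.75 (SE 0.40) for iBAT minus iWAT, and for iBAT minus eWAT it was 3.68 (SE 0.49), the only positive value of the 10 genes in that contrast. Because the eWAT counts were so few, the differences from eWAT are less certain in size than the SE alone conveys.

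Within iWAT, the highest Mmp3 levels were those of the libraries with lymph node genes, at a mean of 82.7 CPM (n = 2), against 41.9 CPM in the other 4, which lay within 39.0 and 44.1 CPM. The 10 macrophage markers summed to 1555 and 1487 CPM in the former and to between 265 and 600 CPM in the latter, and the fibroblast and progenitor markers to 1375 and 2031 CPM against 801 to 2161 CPM. The part of these cell types in the Mmp3 level was not tested. Without both libraries, iBAT minus iWAT for Mmp3 was -4.35. Mmp3 stayed far above its eWAT level in each of the other 4 iWAT libraries.

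Mmp3 lies on chromosome 9 (GRCm38 chr9:7445822-7455975, plus strand, 10 exons). Its promoter is shown because AP-1, the Fos and Jun transcription factor, is known as the inducer of stromelysin genes. These 250 bases before the RefSeq start (GRCm38.p6, chr9:7445572-7445821, plus strand) carry the AP-1 letters TGAGTCA and a TATAAA in capitals.
Mmp3 promoter: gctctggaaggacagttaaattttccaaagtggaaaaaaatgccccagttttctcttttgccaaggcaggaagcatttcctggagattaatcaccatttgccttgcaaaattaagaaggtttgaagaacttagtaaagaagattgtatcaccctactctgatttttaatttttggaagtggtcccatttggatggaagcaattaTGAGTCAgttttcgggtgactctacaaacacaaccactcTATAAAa
The AP-1 letters began 46 bases before the start. Of 32851 promoters of this length, 4.46% held TGACTCA or TGAGTCA (the same letters on either strand) and 7.59% held TATAAA on the strand of the gene. Promoters were matched by symbol for 7 of the 10 genes, and among the other 6 of these an AP-1 match was found only for Mmp12, at the second of its starts, 44 bases before it. A match of letters is a description and not a measured binding site.

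The genes whose pattern over the 18 libraries was most like that of Mmp3 were Tbx15, Mup14 and Mup16, out of 14996 genes with a mean of at least 1 CPM. The measure was the root mean square difference of log2(CPM + 0.5), each gene centred on its own mean. Tbx15, a T-box transcription factor used as a marker of the inguinal depot, was the closest at 0.98, while Mmp3 itself ranged over 7.42 on this scale. Tbx15 had a mean of 21.8 CPM in iWAT, 3.89 CPM in iBAT and 0.134 CPM in eWAT. The major urinary protein genes Mup14 (1.13) and Mup16 (1.19) followed, with means of 51.6 and 86.2 CPM in iWAT. Mup genes are near-identical copies whose reads can be split among them, so their single values are uncertain. The 18 libraries share tissue and mouse, so the likeness is mostly one of 3 tissue levels.

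Of the 10 MMP genes in the chromosome 9 cluster, Mmp3 had the most counts in iWAT. Running from Mmp13 to Mmp7, the cluster holds Mmp13, Mmp12, Mmp1b, Mmp3, Mmp1a, Mmp10, Mmp8, Mmp27, Mmp20 and Mmp7. Mmp10, stromelysin-2, had at most 1 count in any library, which bears on Mmp3 since 14.6% of the 31-base words in the Mmp3 transcript occur in other transcripts, mainly those of Mmp10. Mmp1a, Mmp1b and Mmp20 had at most 4 counts in any library. Mmp27 was likewise highest in iWAT, at 3.17 ± 1.41 CPM in iWAT, 0.657 ± 0.173 in eWAT and 0.0961 ± 0.0889 in iBAT (SD, n = 6 each), but its eWAT level lay above that of iBAT. Mmp27 was called higher in iWAT than in eWAT (log2 difference 2.27, SE 0.43, adjusted p = 0.0032). Collagenase-3, Mmp13, had means between 0.446 and 0.719 CPM in the 3 tissues. Neutrophil collagenase, Mmp8, reached 156 counts in iWAT wt replicate 3, the library in which the neutrophil markers summed to 239.8 CPM, and at most 13 in any other. It was the only neighbour whose means had the order of Mmp3, at 0.985 CPM in iWAT, 0.0336 in iBAT and 0.0248 in eWAT, and no iBAT or eWAT library had more than 3 of its counts. Matrilysin, Mmp7, had 1582 counts in eWAT wt replicate 1, where the epididymis markers summed to 34.9 CPM and the epithelium markers to 41.4 CPM. The next library, eWAT ko replicate 3, had 34 Mmp7 counts beside sums of 5095 and 263 CPM, and the part of these tissues in the Mmp7 level was not tested.

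**Figure D2:**
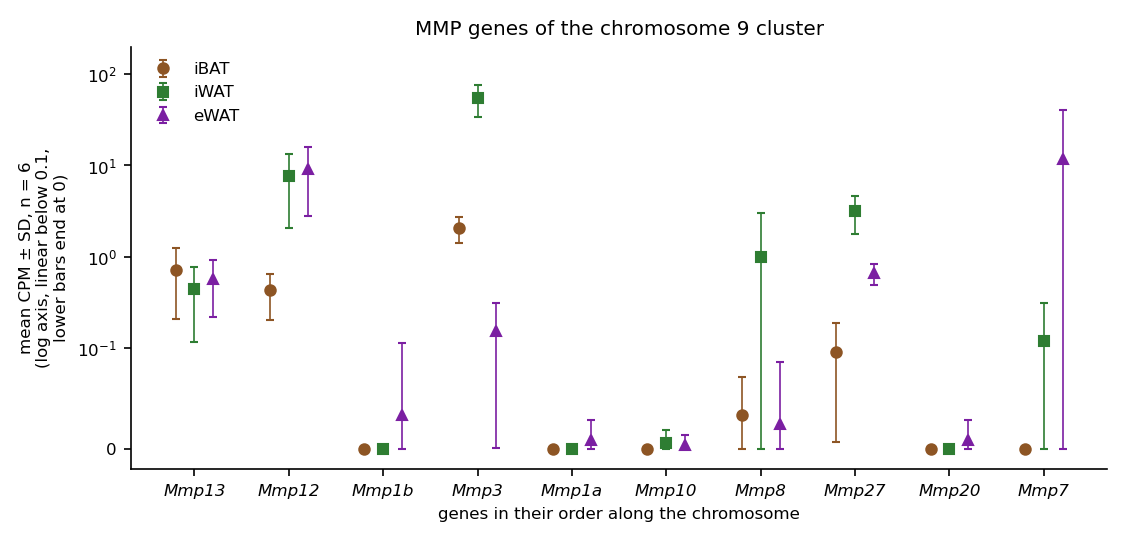
Mean CPM with SD over 6 libraries (vertical log axis, linear below 0.1, lower bars ending at 0) of the MMP genes of chromosome 9 in their order, for each tissue. Mmp3 reaches 55.5 CPM in iWAT, whereas Mmp10 stays at or near 0 in all 3 tissues and Mmp12 is at similar levels in both white depots.

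To ask how the relatives of Mmp3 differ between brown and white fat, iBAT was compared with each white depot over both genotypes. Against iWAT, 7 of the 9 relatives were lower in iBAT and 0 higher (edgeR quasi-likelihood test, Benjamini-Hochberg adjusted p under 0.05), where 54.3% of all genes tested were called in either direction and 30.3% as lower in iBAT. Against eWAT, 6 of 9 were lower and 0 higher, where 54.6% of all genes were called and 30.2% as lower in iBAT. The median log2 difference of the 9 was -3.01 against iWAT and -1.73 against eWAT, beside -0.14 and -0.17 over all 18728 genes. Genes lower in iBAT than in both depots were the gelatinases Mmp2 and Mmp9, the membrane-bound Mmp14, Mmp11, Mmp12 and Timp2, and Timp1 was called lower against iWAT. Mmp19 and Timp3 passed in neither comparison. Both comparisons share the iBAT libraries.

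**Figure D3:**
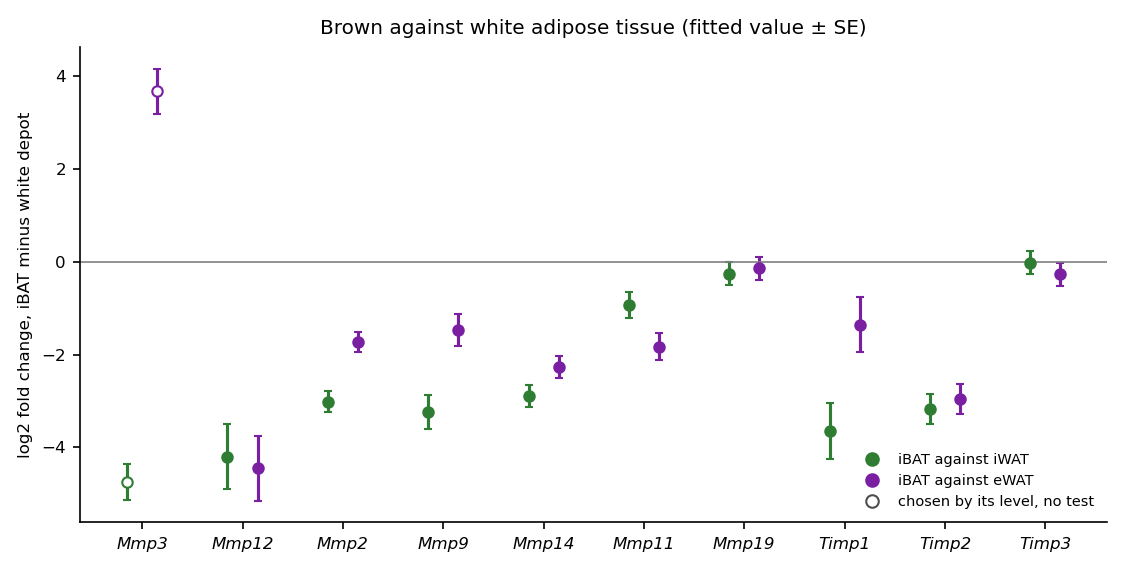
Fitted log2 difference of iBAT minus iWAT and iBAT minus eWAT with SE for each gene, with open symbols for Mmp3, which was not tested. Mmp2, Mmp9, Mmp11, Mmp12, Mmp14 and Timp2 lie below 0 against both depots, and Mmp19 and Timp3 lie near 0.

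Mmp2, gelatinase A, which cuts denatured collagen and type IV collagen, ran from 15.9 to 30.8 CPM in iBAT (median 20.5), from 124 to 285 CPM in iWAT (median 143) and from 48.6 to 82.4 CPM in eWAT (median 75.0). No tissue overlapped with another, with iWAT the highest. The log2 difference was -3.01 (SE 0.22, adjusted p = 1.58e-08) for iBAT minus iWAT and -1.73 (SE 0.22, adjusted p = 3.66e-06) for iBAT minus eWAT. Mmp14, the membrane-type MMP that activates the Mmp2 proenzyme, ran from 8.91 to 15.6 CPM in iBAT (median 12.9), from 56.1 to 163 CPM in iWAT (median 77.1) and from 51.8 to 68.6 CPM in eWAT (median 61.1). The iBAT libraries lay below all white libraries, while both white depots overlapped. Its differences were -2.90 (SE 0.24, adjusted p = 4.45e-08) against iWAT and -2.27 (SE 0.23, adjusted p = 3.75e-07) against eWAT.

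Mmp9, gelatinase B, a protease known from neutrophils and macrophages, ran from 1.02 to 4.15 CPM in iBAT (median 1.78), from 8.19 to 32.1 CPM in iWAT (median 18.003) and from 2.87 to 7.18 CPM in eWAT (median 6.05). The iWAT libraries lay above all others, and iBAT and eWAT overlapped. For Mmp9, iBAT minus iWAT was -3.24 (SE 0.37, adjusted p = 2.07e-06; -2.56 in the wild type libraries alone) and iBAT minus eWAT was -1.47 (SE 0.35, adjusted p = 0.00213), on the log2 scale. The neutrophil markers summed to between 1.11 and 3.16 CPM in iBAT, with 3 of the 10 at 0 in every library, to between 3.09 and 239.8 CPM in iWAT and to between 3.18 and 45.2 CPM in eWAT. The 2 iWAT libraries with the highest Mmp9, ko replicate 1 (32.1 CPM) and wt replicate 3 (20.3 CPM), had neutrophil sums of 3.09 and 239.8 CPM, the lowest and the highest of that tissue. The part of neutrophils in the difference was not tested.

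Mmp12, the macrophage elastase, ran from 0.193 to 0.843 CPM in iBAT (median 0.390), from 1.28 to 17.3 CPM in iWAT (median 7.91) and from 0.644 to 19.0 CPM in eWAT (median 8.35). The white depots overlapped over most of their range, and only the lowest eWAT library, ko replicate 3, reached into the iBAT range. The iBAT values rest on 38 counts in all 6 libraries. On the log2 scale, Mmp12 in iBAT differed by -4.20 (SE 0.70, adjusted p = 9.21e-05) from iWAT and by -4.45 (SE 0.70, adjusted p = 4.78e-05) from eWAT. Without all 4 libraries with genes of other tissues, Mmp12 differed by -3.01 from iWAT and was still called. The gene most like Mmp12 over the 18 libraries, by the same measure as for Mmp3, was Itgax, which encodes the CD11c integrin of macrophages and dendritic cells (root mean square difference 0.71), followed by Rab32 (0.73), a small GTPase, and Timp2 (0.74). All 10 macrophage markers were called lower in iBAT in both comparisons, and their sum ran from 56.4 to 146 CPM in iBAT, from 265 to 1555 CPM in iWAT and from 180 to 578 CPM in eWAT. Both white libraries with the least Mmp12, eWAT ko replicate 3 (0.644 CPM) and iWAT ko replicate 3 (1.28 CPM), had macrophage sums of 180 and 307 CPM. The library with the most Mmp12, eWAT wt replicate 1 (19.0 CPM), had a sum of 423 CPM, under the eWAT median of 470, and iWAT wt replicate 1 had the lowest sum of its tissue (265 CPM) at 2.86 CPM of Mmp12. The part of macrophages in the Mmp12 difference was not tested.

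Mmp11, stromelysin-3, was higher in eWAT than in the other tissues by its median, and ran there from 14.2 to 29.6 CPM (median 19.7). In iWAT it ran from 8.77 to 15.2 CPM (median 9.93) and in iBAT from 2.27 to 9.31 CPM (median 5.72). The iBAT libraries lay below those of eWAT, while iWAT overlapped with both. The log2 difference was -0.93 (SE 0.29, adjusted p = 0.0111) against iWAT and -1.83 (SE 0.29, adjusted p = 5.14e-05) against eWAT. The call against iWAT was lost in the wild type libraries alone (log2 difference -0.73, adjusted p = 0.105) and without wt replicate 1 (-0.77, adjusted p = 0.0615).

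Mmp19, which cuts basement membrane proteins, was the MMP with the smallest differences, from 39.1 to 61.0 CPM in iBAT (median 44.9), from 27.5 to 74.7 CPM in iWAT (median 62.7) and from 21.04 to 68.5 CPM in eWAT (median 57.4). All 3 tissues overlapped. For Mmp19 the fitted log2 difference was -0.25 (SE 0.26, adjusted p = 0.428) against iWAT and -0.14 (SE 0.26, adjusted p = 0.664) against eWAT. Exons of Tmem198b on the opposite strand cover 22.3% of the Mmp19 exons, and, with no word on strand in the counting, reads of this stretch cannot be told apart. The lowest libraries of each white depot, iWAT wt replicate 3 and eWAT ko replicate 3, were among those with genes of another tissue.

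Among the inhibitors, Timp2, the soluble partner of Mmp14 in the activation of Mmp2, ran from 27.0 to 50.8 CPM in iBAT (median 32.7), from 159 to 525 CPM in iWAT (median 263) and from 130 to 323 CPM in eWAT (median 291). The iBAT libraries lay below all white libraries. For Timp2 the fitted log2 difference was -3.17 (SE 0.33, adjusted p = 5.80e-07) against iWAT and -2.95 (SE 0.32, adjusted p = 8.52e-07) against eWAT. The iWAT libraries highest in Timp2, at 525, 525 and 321 CPM, were those with muscle or lymph node genes and also had the highest sums of fibroblast and progenitor markers (2161, 2031 and 1375 CPM, against 801 to 999 CPM in the other 3). Without all 4 libraries with genes of other tissues the Timp2 difference against iWAT was -2.38, still called. Timp1, an inhibitor known to be induced by inflammatory signals, was the least abundant inhibitor, from 0.0783 to 0.644 CPM in iBAT (median 0.285), from 0.974 to 9.15 CPM in iWAT (median 3.18) and from 0.291 to 1.58 CPM in eWAT (median 0.655). Its iBAT libraries lay below those of iWAT and overlapped with those of eWAT. The log2 difference was -3.65 (SE 0.61, adjusted p = 9.83e-05) against iWAT, while that against eWAT, -1.35 (SE 0.59, adjusted p = 0.0635), did not pass. Without all 4 libraries with genes of other tissues, the former was -2.76 and still called. The difference against eWAT passed when libraries with genes of another tissue were left out, with adjusted p = 0.0311 without all 4 (0.0311 to 0.22 over 15 alternatives).

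Timp3, an inhibitor that stays bound to the matrix and also blocks ADAM proteases, was the inhibitor with the most counts and the flattest profile. It ran from 266 to 373 CPM in iBAT (median 315), from 167 to 551 CPM in iWAT (median 293) and from 213 to 518 CPM in eWAT (median 386). All 3 tissues overlapped. The log2 difference was -0.02 (SE 0.24, adjusted p = 0.958) against iWAT and -0.27 (SE 0.24, adjusted p = 0.365) against eWAT, and without all 4 libraries with genes of other tissues the latter was -0.40 (adjusted p = 0.0197, beside 0.0197 to 0.51 over 15 alternatives). Exons of Syn3 on the opposite strand cover 21.3% of the Timp3 exons. Of the other members, Mmp11 shares 5.58% of its exons with Chchd10 and Mmp12 2.17% with Mmp1b, both on the opposite strand.

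The markers of fibroblasts and adipocyte progenitors, which make much of the matrix, were also lower in iBAT. All 10 were called lower in iBAT against iWAT and 8 of 10 against eWAT, and the summed level ran from 246 to 335 CPM (iBAT), from 801 to 2161 CPM (iWAT) and from 737 to 1227 CPM (eWAT). Of 6 common adipocyte markers, 1 was called higher and 1 lower in iBAT in each comparison. The part of the fibroblast share in the differences of the MMPs and TIMPs was not tested. Mitochondrial transcripts took between 22.9% and 27.0% of the counts in iBAT and between 3.77% and 9.64% in the white depots, and the scaling factors were between 0.617 and 0.744 in iBAT and between 1.06 and 1.44 in the white depots. With the size factors of DESeq2 in place of this scaling, the counts of called relatives were again 7 and 6.

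Between the white depots, where the 10 genes were not tested, the libraries of 3 of the 10 genes did not overlap, Mmp2, Mmp3 and Mmp9, all higher in iWAT, where 4.62% of all genes tested did not overlap in either direction and 2.3% as higher in iWAT. The choice of Mmp3 fixes 1 of these. The log2 difference of iWAT minus eWAT was 1.28 (SE 0.21) for Mmp2 and 1.77 (SE 0.35) for Mmp9. In the wild type libraries alone it was 1.09 for Mmp9. It was 2.30 (SE 0.55) for Timp1 and 0.63 (SE 0.22) for Mmp14, with overlapping libraries. Mmp11 went the other way at -0.90 (SE 0.28). For Mmp12 (-0.25, SE 0.58), Mmp19 (0.11, SE 0.26), Timp2 (0.22, SE 0.30) and Timp3 (-0.25, SE 0.24) the values lay within about 1 SE of 0. The largest of the relatives, Timp1, was thus far from the 8.43 of Mmp3, and the median of the 9 relatives was 0.22 beside 0.01 over all genes.

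Several of these values rest on the iWAT libraries with lymph node genes, in which the 6 common adipocyte markers summed to 7268 and 10501 CPM, against 18585 to 20848 CPM in the other 4. In these, Mmp14 had a mean of 139.7 CPM against 70.1 CPM in the other 4 iWAT libraries, Timp1 7.76 against 2.32 CPM and Mmp12 13.2 against 4.99 CPM. Timp3 was lower there, at 213 against 386 CPM, and so was Mmp11, at 8.79 against 12.1 CPM. The ranges of both sets overlapped for Mmp2 (212 against 152 CPM), Timp2 (423 against 268 CPM), Mmp19 (47.1 against 60.7 CPM) and Mmp9 (17.8 against 19.1 CPM). Without the libraries with lymph node genes, iWAT minus eWAT was 0.22 for Mmp14 and 1.48 for Timp1, and for Mmp12 it was -0.84. Without all 4 libraries with genes of other tissues, it was 0.89 for Mmp2, 1.27 for Mmp9, 0.12 for Mmp14, 1.27 for Timp1 and 7.78 for Mmp3, while it was -1.68 for Mmp12 and Timp2 became negative at -0.71.

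**Figure D4:**
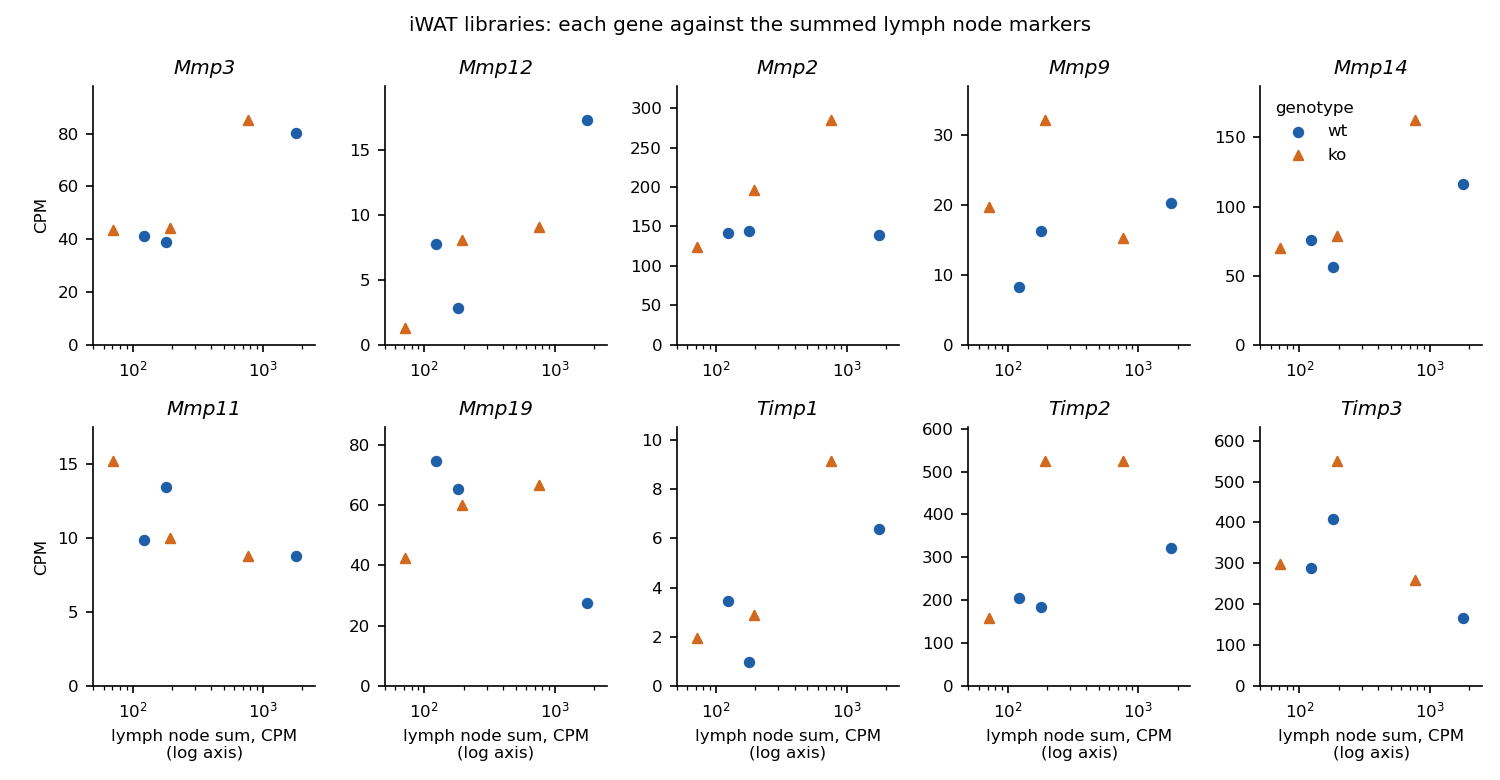
CPM of each gene in the 6 iWAT libraries (vertical axis) against the summed CPM of 10 lymph node markers in the same library (horizontal log axis), with wt as circles and ko as triangles. The libraries at 762 and 1774 CPM of lymph node markers have the highest Mmp3, Mmp12, Mmp14 and Timp1, and the lowest Mmp11 and Timp3.

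Levels of different genes were compared per length, as transcripts-per-million (TPM) from the lengths of the joined exons. TPM were not TMM-scaled, so they serve to compare genes within a tissue and not the level of a gene between tissues. In iBAT the order started with Timp3 (52.4 ± 3.58 TPM), Mmp19 (17.6 ± 2.09), Timp2 (11.8 ± 2.83) and Mmp2 (8.40 ± 2.37; SD, n = 6 each). In iWAT it started with Timp2 (270.1 ± 156 TPM), Mmp2 (167 ± 73.0), Timp3 (127 ± 46.4) and Mmp3 (103 ± 52.9). In eWAT it started with Timp2 (245 ± 63.3 TPM), Timp3 (171 ± 52.4), Mmp2 (73.2 ± 14.5) and Mmp19 (51.9 ± 15.0), and Mmp3 was the last at 0.317 ± 0.340 TPM. Among these leading genes, the order of neighbours did not hold in every library for Timp2 and Mmp2 in iBAT, where 5 of 6 libraries had more Timp2, for Mmp2 and Timp3 in iWAT, where 4 of 6 had more Mmp2, for Timp3 and Mmp3 in iWAT, where 4 of 6 had more Timp3 and both libraries with lymph node genes had more Mmp3, and for Mmp2 and Mmp19 in eWAT, where 5 of 6 had more Mmp2. In iWAT, Mmp14 (52.1 ± 28.2) and Mmp19 (49.98 ± 14.1 TPM) differed by far less than their spread, with Mmp14 ahead in 2 of 6 libraries. In iBAT, Mmp11 (2.85 ± 1.52) and Mmp14 (2.81 ± 0.802 TPM) did likewise. The order can also depend on the length used, most of all for Timp3. Its joined exons have 8144 bases and its longest transcript 4722, against 3896 and 3709 bases for Timp2.

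The make-up of the 7 MMPs and of the 3 TIMPs chosen here differed between the tissues. Mmp19 made up 52.3% ± 8.61 of the summed TPM of the 7 MMPs in iBAT, 13.4% ± 5.07 in iWAT and 25.9% ± 6.10 in eWAT. Mmp3 made up 24.7% ± 5.90 in iWAT, 4.43% ± 1.18 in iBAT and 0.153% ± 0.159 in eWAT. Timp3 made up 81.0% ± 3.62 of the summed TPM of the 3 TIMPs in iBAT, 34.2% ± 13.7 in iWAT and 40.6% ± 4.09 in eWAT, and Timp2 made up most of the rest. In iWAT the Timp3 share was 18.1% and 18.6% in the libraries with lymph node genes and between 32.9% and 51.0% in the other 4. The summed TIMP level was 1.92 ± 0.209 times the summed MMP level in iBAT, 1.02 ± 0.30 times in iWAT and 2.11 ± 0.448 times in eWAT (SD, n = 6 each). In iWAT, 5 libraries had ratios between 0.829 and 0.961, and ko replicate 1, the library with skeletal muscle genes, stood at 1.62. Mmp3 was chosen for being high in iWAT and low in eWAT, so the difference of this ratio between the white depots is not independent of the choice of genes.

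**Figure D5:**
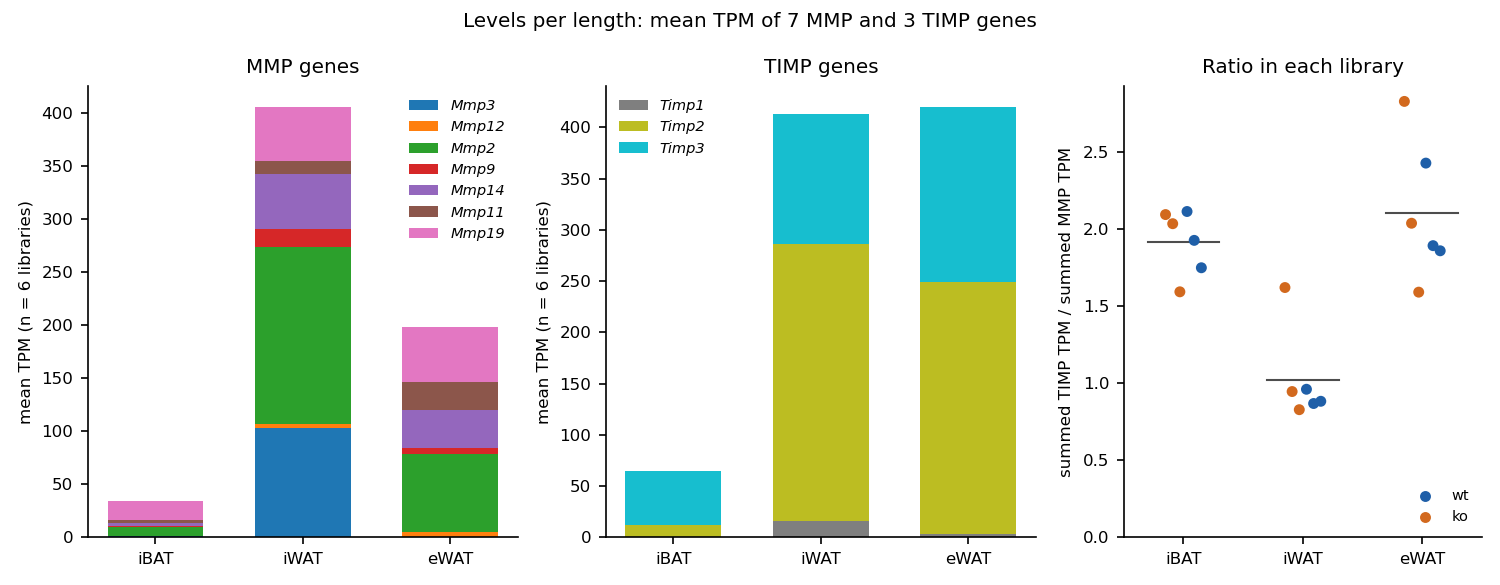
Mean TPM of the 7 MMP genes (left) and the 3 TIMP genes (middle), stacked by gene for each tissue (n = 6 libraries), and the ratio of summed TIMP to summed MMP TPM in each library with the mean as a line (right). The MMP sum is 34.0 TPM in iBAT, 405 in iWAT and 198 in eWAT, and the ratio is lowest in iWAT with 1 library at 1.62. TPM are not TMM-scaled, and bar heights show wider gaps between iBAT and the white depots than CPM do. Timp3 means are 323, 329 and 389 CPM but 52.4, 127 and 171 TPM in iBAT, iWAT and eWAT.

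The genes of the pathway around the MMPs were taken as lists of 120 further genes, of which 103 passed the filter. Against iWAT, 67 of the 103 were lower in iBAT and 8 higher, where 30.3% of all genes were called lower and 54.3% in either direction. Against eWAT 68 were lower and 12 higher, where these shares were 30.2% and 54.6%. Between iWAT and eWAT, where 10.2% of all genes were called, 14 were higher in iWAT and 8 lower. The median log2 difference of these 103 genes was -1.52 against iWAT and -1.36 against eWAT, beside -0.14 and -0.17 over all genes.

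Of the 8 other MMPs past the filter, 3 were lower in iBAT against iWAT: Mmp23 (log2 difference -1.65, SE 0.34, adjusted p = 0.000624), Mmp27 (-4.96, SE 0.54, adjusted p = 9.46e-07) and Mmp28, a share (37.5%) near the 30.3% of all genes. Against eWAT 4 were lower and 1 higher. One of the 4 was Mmp7, which had 0 counts in every iBAT library and nearly all its eWAT counts in wt replicate 1. Of the 26 substrates of the MMPs, 22 were lower in iBAT against iWAT and 23 against eWAT, and 6 were higher in iWAT than in eWAT with 1 lower. Col1a1, a chain of type I collagen, had means of 120 CPM in iBAT, 1384 in iWAT and 279 in eWAT, with a log2 difference of 2.25 (SE 0.32, adjusted p = 0.000308) for iWAT minus eWAT. Of the 26 ADAM and ADAMTS proteases, 18 were lower in iBAT and 1 higher against iWAT, and 18 lower and 2 higher against eWAT. Adamts5, an aggrecanase that Timp3 inhibits, was lower in iBAT than in eWAT (-4.18, SE 0.25, adjusted p = 1.13e-09) and lower in iWAT than in eWAT (-1.28, SE 0.23, adjusted p = 0.00172).

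Other inhibitors and receptors also differed. Timp4, the TIMP not among the 10, had means of 99.8 CPM in iBAT, 87.2 in iWAT and 237 in eWAT. It did not pass between iBAT and iWAT (0.19, SE 0.35, adjusted p = 0.672), and it was lower than in eWAT both in iBAT (-1.24, SE 0.35, adjusted p = 0.00638) and in iWAT (-1.43, SE 0.35, adjusted p = 0.0171). Reck, a membrane-anchored MMP inhibitor, was lower in iBAT against iWAT (-1.70, SE 0.25, adjusted p = 3.17e-05) and eWAT (-1.16, SE 0.25, adjusted p = 0.000835), and so was Lrp1, a receptor that clears MMPs and TIMPs from the matrix (-1.24, SE 0.22, adjusted p = 0.000155 and -1.15, SE 0.22, adjusted p = 0.000276).

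In the plasminogen system, whose protease plasmin activates MMP proenzymes, 5 of 9 genes were lower in iBAT and 1 higher against iWAT, and 8 lower and 1 higher against eWAT. Plau, the urokinase that makes plasmin, had means of 12.5 CPM in iBAT, 38.6 in iWAT and 98.7 in eWAT, and it was lower in iWAT than in eWAT (-1.35, SE 0.27, adjusted p = 0.00504), the opposite direction to Mmp3 between the white depots. Of the 16 cathepsins and cystatins, 10 were lower and 5 higher in iBAT against iWAT and 6 lower and 6 higher against eWAT. Ctsk, cathepsin K, was higher in iWAT than in eWAT (1.55, SE 0.21, adjusted p = 0.000202). Of 13 inducers of MMPs, among them cytokines and AP-1 subunits, 6 were lower and 1 higher in iBAT against iWAT, so that 53.8% were called where 54.3% of all genes were. Against eWAT 4 were lower and 1 higher, and between iWAT and eWAT 0 were called, while Tnf, Il1b, Osm and Ets1, with positive log2 differences of iWAT minus eWAT, and Tgfb2, with a negative one, had an unadjusted p under 0.05 (edgeR), where 25.5% of all genes did. The gene that was higher in iBAT was Bsg, which encodes the MMP inducer basigin, with a log2 difference of 1.18 (SE 0.14, adjusted p = 1.76e-06) against iWAT and 1.23 (SE 0.14, adjusted p = 8.57e-07) against eWAT.

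The last question was whether the loss of Gm15551 changes these genes. Across the tissues, 0 of the 10 were called and 0 had an unadjusted p under 0.05 (edgeR), and DESeq2 also called 0, where 0.00534% of all genes were called and 2.19% had an unadjusted p under 0.05. The log2 differences of ko minus wt lay between -0.72 (Mmp12, SE 0.50) and 0.30 (Timp1, SE 0.46), and the smallest unadjusted p was 0.172. Mmp3 differed by -0.02 (SE 0.32) across the tissues. This fit takes the libraries of 1 mouse as independent, although they came from 3 ko and 3 wt mice, so its SE and p may be too small.

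Within each tissue, too, 0 of the 10 were called and 0 had an unadjusted p under 0.05 by edgeR, and DESeq2 called 0. Of all genes tested, 0% were called in iBAT and iWAT and 0.00534% in eWAT, and 1.27%, 2.22% and 4.35% had an unadjusted p under 0.05 in iBAT, iWAT and eWAT. By edgeR, Gm15551 itself was thus not called in iBAT, at 68, 42 and 40 counts in wt and 0 in each ko library. Nor was it called in iWAT, at 316, 177 and 59 counts in wt and 1, 1 and 0 in ko. The lack of calls there therefore does not show that the 10 genes were unchanged. In iWAT, Timp2 was 184, 204 and 321 CPM in wt and 525, 525 and 159 CPM in ko, and Mmp2 was 145, 142 and 140 CPM in wt and 197, 285 and 124 CPM in ko. The ko libraries of both genes reached below and above those of wt, at log2 differences of 0.77 (SE 0.41) and 0.51 (SE 0.27). The ko libraries above wt in both genes were replicate 1, with muscle genes, and replicate 2, with lymph node genes, and the remaining ko library was the lowest of the 6 in both. The fibroblast and progenitor markers summed to 2161 and 2031 CPM in the former, to 801 CPM, the lowest of iWAT, in the latter and to between 961 and 1375 CPM in wt, and their part in these values was not tested. In eWAT, Mmp9 was 6.81, 7.18 and 7.16 CPM in wt and 5.28, 4.83 and 2.87 CPM in ko. This was the only one of the 30 comparisons of a gene within a tissue in which the genotypes did not overlap, where 5.25% of all genes in eWAT did not overlap (iBAT 4.94%, iWAT 4.92%), and its log2 difference was -0.70 (SE 0.43, unadjusted p = 0.126 and adjusted p = 1 by edgeR). The lowest of these, 2.87 CPM, was the library with epididymis genes. The test of whether the genotype difference itself differed between tissues called 0 of the 10 with 0 at an unadjusted p under 0.05 by edgeR, and DESeq2 called 0, where 0% of all genes were called and 1.41% had an unadjusted p under 0.05. The smallest unadjusted p was 0.0826 for Mmp9. With 3 libraries a group, the SE of these differences ran up to 1.10 on the log2 scale (Mmp12 in iBAT). A difference of 1 SE is far from a call, so larger changes than this in Mmp12 could also have been missed. The same limit holds for the other genes at their own SE.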

How the data were processed

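Frozen tissue was lysed, RNA extracted on spin columns, polyA libraries were made with the NEBNext Ultra II kit and sequenced as paired ends. The authors trimmed reads with cutadapt and quantified transcripts with Salmon, on GENCODE M22 with or without RNAcentral by their methods, and deposited 1 table of estimated counts per gene for GRCm38. Tool versions, which of these annotations made the table, whether strand was used and how transcripts were summed to genes are not given in the sources used here. The estimated counts were rounded to whole numbers. Genes were kept by filterByExpr on the 6 groups (18728 of 54347), scaled by TMM and tested with edgeR 4.0.16 (quasi-likelihood F-test, R 4.3.3) with Benjamini-Hochberg adjustment over all genes tested and a threshold of 0.05. Tissues and the genotype across tissues were fitted as tissue plus genotype, and the genotype within a tissue and the interaction as 6 group means. SE was taken as the log2 difference over the square root of F. CPM were TMM-scaled, and TPM, which were not, used exon lengths of GENCODE M21, the release at hand for this build. The counts that sequencing gives without molecular identifiers may hold PCR copies.

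The members, the lists of pathway and marker genes and the tests were chosen with earlier results of these data known. The 10 members are named throughout. From the pathway lists, up to 2 called genes per list and tissue contrast with the largest change and a mean of at least 1 CPM could be named, besides Timp4, Reck, Lrp1 and Plau. A further gene that this rule names is not reported here. Mmp28, the neighbours of Mmp3 on chromosome 9 and the other listed genes named only with counts were added after their values were seen. The animal identifiers in the labels pair the libraries of 1 mouse across tissues, which the fit reported here does not use. The mouse block uses them, but it gives no genotype difference across tissues. The deviations of libraries from the same mouse correlated between -0.151 and 0.345 over 18 pairs. The fit was tested on simulated data. Alternatives were DESeq2 1.42.0, its size factors, no filter, a block for the mouse or replicate number, wild type libraries only and leaving out mice or libraries. Samples of one group came from separate mice, and no 2 replicates agreed within sampling noise.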

Additional observations from a re-analysis of the deposited data

Results flagged for a closer look

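For each of the 10 genes in each of the 3 tissues, the gap between the highest or lowest library and its nearest neighbour was set against the whole range of the 6 libraries. In 3 of these 30 sets 1 library stood apart by Dixon's criterion (a gap over 0.625 of the range), where chance gives about 1 in 20, or 1.5 of 30. Mmp2 in iBAT was 30.8 CPM in ko replicate 3, and the next library was at 21.2 CPM. Mmp12 in iBAT was 0.843 CPM in wt replicate 2, and the next was at 0.433 CPM. Timp2 in eWAT was 129.9 CPM in ko replicate 3, the library with epididymis genes, and the next was at 275 CPM. Without that library, iBAT minus eWAT for Timp2 remained below 0 and called.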

How the results depend on the processing

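Across 15 alternatives for the tissue contrasts, the number of relatives called stayed between 6 and 7 for iBAT against iWAT and between 6 and 8 for iBAT against eWAT, and the genotype tests called 0 of the 10 under each alternative run (2 for the interaction, 13 or 14 for the others). With the replicate block for the mouse, 7 and 6 relatives were called, as without it, and no call changed. The wt mice are litter mates of the ko mice, but the labels do not say that a replicate number marks a litter: the deviations of wt and ko libraries of the same number correlated between -0.558 and 0.608, 4 of 9 pairs over 0.1, and the block again gave 0 calls. Between iWAT and eWAT, leaving out 1 mouse gave between 3 and 5 genes with separate libraries, 5 of them without wt replicate 1. With the longest transcript as length, the TIMP to MMP ratio in iBAT was 2.71. The causes were not tested. Counting depth limits Mmp3 in eWAT and Mmp12 and Timp1 in iBAT.

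Of the tested values, only ones that were not called changed sign, and of the iWAT minus eWAT values given as a description, Mmp12 (between -1.68 and 0.13), Mmp19 (-0.06 and 0.27) and Timp2 (-0.71 and 0.38) did. For Timp3, iBAT minus iWAT (log2 difference -0.02) was 0.000283 with DESeq2 size factors, 0.000279 with DESeq2, 0.049 with the mouse as block, 0.13 in wild type libraries only and between -0.26 and 0.19 with mice or libraries left out. For ko minus wt across tissues, leaving out 1 mouse or 1 library gave between -0.0073 and 0.24 for Mmp2, -0.20 and 0.084 for Mmp3, -0.25 and 0.19 for Mmp11, -0.15 and 0.17 for Mmp14, -0.20 and 0.15 for Mmp19, -0.22 and 0.59 for Timp1, -0.012 and 0.42 for Timp2 and -0.14 and 0.32 for Timp3. Without the libraries with lymph node genes this difference was -0.03 for Mmp14. Without all 4 libraries with genes of other tissues, an alternative chosen after seeing the data, it was 0.016 for Mmp3, 0.022 for Mmp11, -0.033 for Mmp14 and -0.065 for Timp2.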
